A study of Homo sapiens with 21 samples.

Results

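CD44, CD24, PROM1, PROCR, THY1, ALDH1A1, ALDH1A3 and SOX9 are genes whose products are used to mark breast cancer stem cells, the tumour cells with the greatest capacity to start new growth. These 8 genes were taken from the 60668 genes listed in each of 2 count tables of HCC1806, by matching Ensembl identifiers to their symbols. HCC1806 is an established human cell line from a triple-negative breast cancer, grown here as an adherent culture. RNA-seq read counts covered 21 libraries in 7 groups of 3. The first table held control cells (3xCTL), cells labelled 3xSR, for which the series title names overexpression of SRSF2, SRSF3 and SRSF7 together, and cells overexpressing MYC (MYC-OE). The second table held a single plasmid control (1xCtrl) and 3 lines, each labelled for one of the SR genes: SRSF7-OE, SRSF3-OE and SRSF2-OE. SRSF2, SRSF3 and SRSF7 are SR proteins, RNA-binding proteins that guide the choice of splice sites, and MYC is a transcription factor. All groups share the parental line and the culture. The vectors, promoters and number of clones behind each line are not given in the sources used here. Whether the 3 libraries of a group came from separate cultures is not given either, so p-values measure the spread between these libraries, which may be technical.

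In breast tumours, cells with much CD44 and little CD24 on their surface have been enriched for tumour-initiating capacity, and basal-like lines carry much CD44 as a rule. CD44 is a receptor for hyaluronan whose variable exons are spliced in or out, and CD24 is a small, heavily glycosylated surface protein. PROM1 (CD133), PROCR (the endothelial protein C receptor) and THY1 (CD90) are further surface markers of stem or progenitor cells. ALDH1A1 and ALDH1A3 oxidise retinal to retinoic acid and contribute to the aldehyde dehydrogenase activity by which such cells are sorted. SOX9 is a transcription factor of mammary progenitors. The counts are per gene, so CD44 isoforms were not analysed here. In bulk RNA, fewer cells of a type and less RNA per cell cannot be told apart.

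Library depth ranged from 143269192 to 303323552 counts. PROM1 was sparse, with 0 to 311 counts a library, and SOX9, the next lowest per kilobase together with THY1, had at least 685. Levels are given as CPM, the usual counts scaled to sequencing depth, with library sizes scaled by the trimmed mean of M-values (TMM) within each table. A gene is said to have risen, fallen or changed where the quasi-likelihood test of edgeR gave an adjusted p under 0.05. SE is the absolute log2 fold change divided by the square root of that test's F statistic. It was thus derived from the test and is approximate, above all for the sparse PROM1. The targeted genes were checked first: SRSF3 rose by 0.49 (SE 0.07, adjusted p = 1.93e-04) on the log2 scale in SRSF3-OE, SRSF7 by 0.26 (SE 0.05, adjusted p = 0.00616) in SRSF7-OE and MYC by 0.90 (SE 0.05, adjusted p = 5.70e-08) in MYC-OE. In the libraries labelled 3xSR, SRSF3 rose by 0.31 (SE 0.06, adjusted p = 0.00243) and SRSF7 by 0.44 (SE 0.05, adjusted p = 3.57e-05). SRSF2 had a log2 fold change of -0.16 (SE 0.06, adjusted p = 0.0980) in the libraries labelled SRSF2-OE and of -0.06 (SE 0.05, adjusted p = 0.389) in those labelled 3xSR. These lines are therefore named by their labels only, and 3xSR and SRSF2-OE stand throughout for the libraries so labelled. The targeted genes also moved in other lines: MYC rose by 0.75 (SE 0.05, adjusted p = 4.01e-07) in 3xSR, 0.26 (SE 0.06, adjusted p = 0.00406) in SRSF3-OE and 0.27 (SE 0.06, adjusted p = 0.00608) in SRSF7-OE, and SRSF3 by 0.30 (SE 0.07, adjusted p = 0.00794) and SRSF7 by 0.24 (SE 0.05, adjusted p = 0.00681) in SRSF2-OE. SRSF2 fell by 0.48 (SE 0.05, adjusted p = 2.32e-05) in MYC-OE and by 0.38 (SE 0.06, adjusted p = 0.00180) in SRSF7-OE. SRSF7 did not pass between SRSF7-OE and SRSF2-OE, at 0.02 (SE 0.05, adjusted p = 0.812). Nor did SRSF3 between SRSF3-OE and SRSF2-OE, at 0.19 (SE 0.07, adjusted p = 0.0586). MYC was higher in MYC-OE than in 3xSR by 0.15 (SE 0.05, adjusted p = 0.0290). The 8 epithelial and basal markers EPCAM, CDH1, KRT5, KRT6A, KRT14, KRT17, EGFR and TP63 were at 1 CPM or more in every library, and ESR1 (6.49 to 11.5 CPM) and PGR (0 to 1.46 CPM) were low. Of the luminal markers, ERBB2 had 99.6 to 184 CPM, GATA3 18.00 to 28.1 CPM and FOXA1 9.72 to 21.4 CPM. Without 1xCtrl replicate 2, the number of all genes called in SRSF7-OE went from 4214 to 7321.

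All 8 genes passed the filter on low counts in both tables. In the first table PROM1 passed through 3xSR and MYC-OE, as 3xCTL had only 10, 0 and 17 counts. The rises of PROM1 counted below for these lines thus rest on a filter that 3xCTL did not meet. With at least 10 counts asked of every library PROM1 was not tested there, and 7 of the 8 genes were called in 3xSR. Against 3xCTL, 5 of them rose and 3 fell in the libraries labelled 3xSR, where 29% of all 23160 genes tested changed, 15.3% rising and 13.7% falling. In MYC-OE 5 rose and 2 fell, against 18% and 17.3% of all genes (35.3% changed). Against 1xCtrl, 7 rose and 1 fell in the libraries labelled SRSF2-OE, where 11.6% and 11.9% of all 24362 genes tested did (23.5% changed). These 8 calls went down to 4 with only the groups compared in the fit, and to between 3 and 6 when 1 library was left out. SRSF3-OE had 5 higher and 2 lower, beside 15% and 14.1% (29.2% changed), and SRSF7-OE had 4 higher and 1 lower, beside 9.03% and 8.26% (17.3% changed). The median log2 fold change of the 8 genes was 0.47, 0.57, 0.33, 0.54 and 0.28 in that order, beside -0.0038, -0.0046, -0.011, -0.025 and -0.0048 over all genes tested. In 3xSR and MYC-OE this median, like the 5 rises, includes PROM1, which passed the filter only through these lines. Medians without PROM1 were not computed. Changes past 2-fold were those of PROM1 outside SRSF2-OE, PROCR and THY1 in MYC-OE, THY1 in SRSF7-OE and ALDH1A1 in SRSF3-OE. The comparisons of a table share their 3 control libraries, so a direction that recurs in them is not independent evidence.

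**Figure D1:**
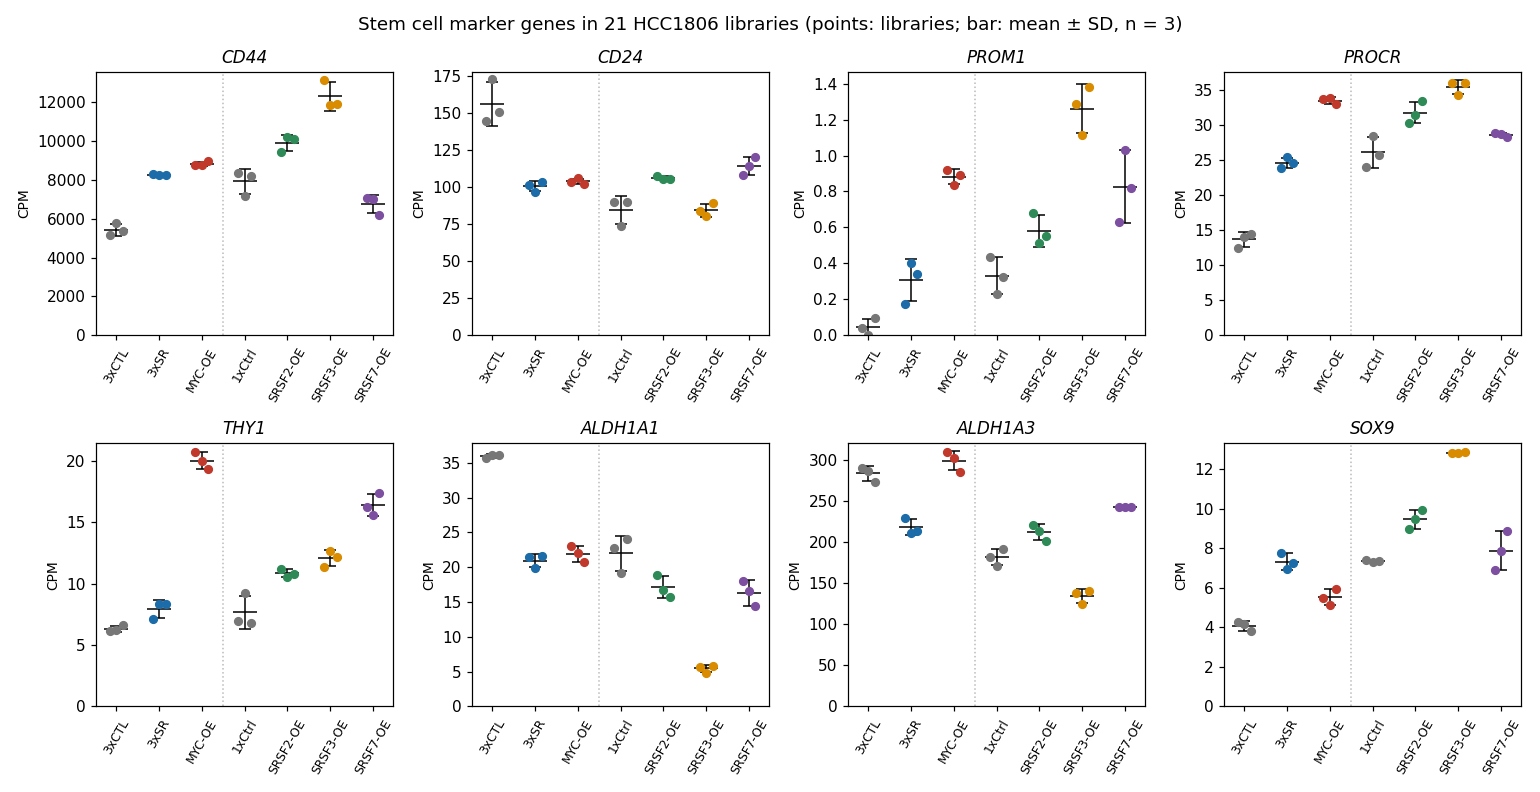
CPM (linear axes from 0, TMM-scaled within each table) of the 8 marker genes in the 21 libraries; points are libraries and bars mean ± SD of 3. Mean CD44 ran from 5429 CPM in 3xCTL to 12307 CPM in SRSF3-OE, and mean ALDH1A1 from 35.97 CPM in 3xCTL down to 5.46 CPM in SRSF3-OE.

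**Figure D2:**
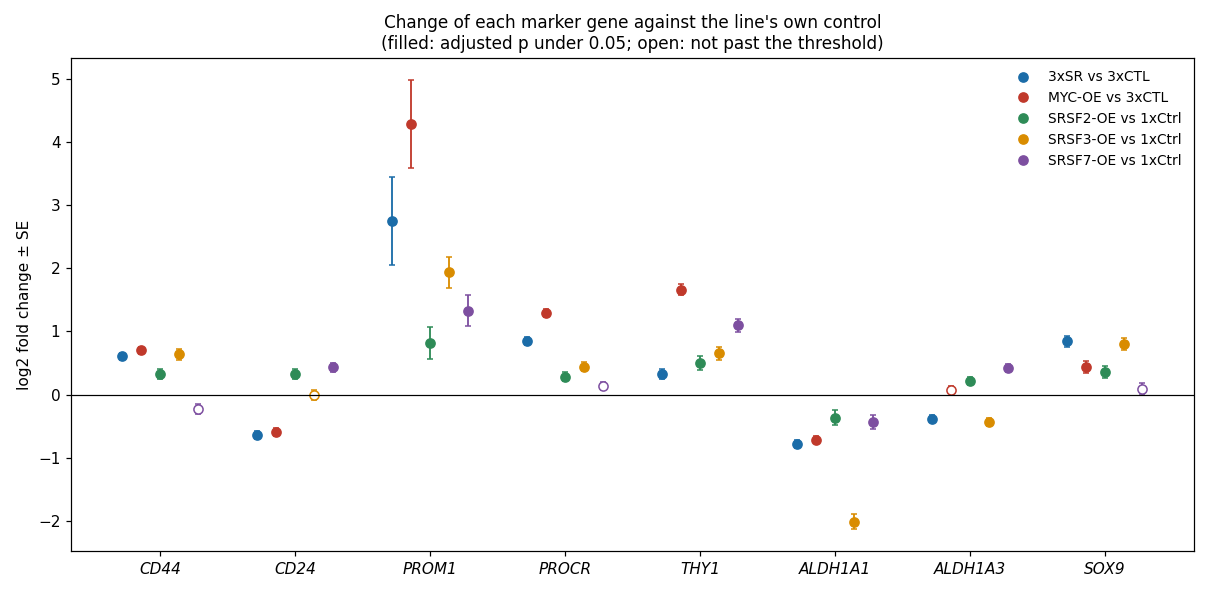
Log2 fold change ± SE of each gene against its own control in the lines labelled 3xSR, MYC-OE, SRSF7-OE, SRSF3-OE and SRSF2-OE; filled points passed an adjusted p of 0.05 in edgeR's test and open points did not. PROM1 and THY1 lay above 0 and ALDH1A1 below 0 in all 5 lines, while CD24 and ALDH1A3 lay on both sides of 0.

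Upstream sequences of 4 of the genes are shown because CD44 and PROCR were called higher in the same 4 lines, while ALDH1A1 and ALDH1A3 were called in opposite directions in SRSF7-OE and in the libraries labelled SRSF2-OE. They are the 250 bases before a RefSeq start site of each gene on GRCh38.p14, 5′ to 3′ on the strand of the gene. They lie at chr11:35138921-35139170 (CD44, plus), chr20:35171822-35172071 (PROCR, plus), chr9:72953054-72953303 (ALDH1A1, minus) and chr15:100879581-100879830 (ALDH1A3, plus). GENCODE 29 lists 37 transcript starts for CD44, 3 for PROCR and 7 for each of these ALDH1A genes. Which starts were used in these cells was not tested. Capitals mark a match, on either strand, to CCAAT or TATAAA (promoter motifs), CACGTG (the E-box that MYC binds) or TGANTCA (the AP-1 site).
CD44: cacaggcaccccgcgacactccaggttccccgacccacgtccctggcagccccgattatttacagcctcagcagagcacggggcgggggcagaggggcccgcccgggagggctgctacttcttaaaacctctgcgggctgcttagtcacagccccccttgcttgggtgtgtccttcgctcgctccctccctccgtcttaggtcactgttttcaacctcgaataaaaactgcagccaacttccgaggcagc
PROCR: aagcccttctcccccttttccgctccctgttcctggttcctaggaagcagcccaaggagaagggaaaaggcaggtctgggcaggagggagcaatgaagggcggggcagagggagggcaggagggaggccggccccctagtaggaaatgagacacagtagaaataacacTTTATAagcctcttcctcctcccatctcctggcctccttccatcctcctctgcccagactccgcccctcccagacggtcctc
ALDH1A1: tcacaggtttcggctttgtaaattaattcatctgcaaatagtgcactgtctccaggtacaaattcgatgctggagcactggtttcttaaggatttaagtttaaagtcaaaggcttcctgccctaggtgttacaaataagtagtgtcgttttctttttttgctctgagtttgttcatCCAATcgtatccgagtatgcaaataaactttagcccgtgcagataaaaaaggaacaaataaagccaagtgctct
ALDH1A3: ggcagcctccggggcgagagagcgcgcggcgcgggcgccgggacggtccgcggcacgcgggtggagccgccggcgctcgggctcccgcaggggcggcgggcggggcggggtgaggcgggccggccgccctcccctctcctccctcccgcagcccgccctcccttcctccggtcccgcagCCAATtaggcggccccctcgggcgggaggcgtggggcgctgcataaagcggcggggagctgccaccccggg

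Both ALDH sequences hold CCAAT, at -74 in ALDH1A1 and -71 in ALDH1A3 counted from the start site. PROCR holds TATAAA at -82, read on the opposite strand, and CD44 holds none of the 4 motifs. The search covered windows of 300 bases, 250 before and 50 after the start. Of 35116 such windows in RefSeq, 34.6% hold CCAAT and 11.5% hold TATAAA. The AP-1 motif is in 7.71% and the E-box in 7.26% of them. The E-box was in no window of the 6 marker genes with an entry (CD44, CD24, PROM1, PROCR, ALDH1A1 and ALDH1A3). The ALDH windows differ in base composition, with 40.3% G and C in ALDH1A1 and 81.7% in ALDH1A3, beside a median of 58.7% over all windows.

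CD44 (ENSG00000026508.18, chromosome 11, 35138870 to 35232402, plus strand, GRCh38 as for all genes here) was the most abundant of the 8 per kilobase of exon, with 0.525% to 1.24% of all counts. In replicates 1, 2 and 3 it stood at 5151, 5762 and 5375 CPM in 3xCTL, 8305, 8229 and 8255 CPM in the libraries labelled 3xSR and 8754, 8764 and 8963 CPM in MYC-OE. Both lines lay above all 3 controls. CD44 rose by 0.61 (SE 0.05, adjusted p = 4.80e-06) in 3xSR and by 0.70 (SE 0.05, adjusted p = 9.47e-07) in MYC-OE, on the log2 scale. In the second table it stood at 8345, 7179 and 8222 CPM in 1xCtrl, 13160, 11873 and 11888 CPM in SRSF3-OE and 9428, 10184 and 10125 CPM in the libraries labelled SRSF2-OE. No library of these lines overlapped with the control, and CD44 rose by 0.64 (SE 0.08, adjusted p = 8.61e-05) and by 0.32 (SE 0.08, adjusted p = 0.0113). SRSF7-OE was the line in which CD44 was lower than in every control library, at 7042, 6991 and 6200 CPM. Its log2 fold change of -0.23 (SE 0.08, adjusted p = 0.0711) missed the threshold. It passed with DESeq2 (adjusted p = 0.0374) and limma-voom (0.0380), in edgeR with total counts as the only scaling (0.0347), no filter (0.0325), a stricter filter (0.0494) or the GC trend removed (0.0177), and without 1xCtrl replicate 2 (0.0118), SRSF7-OE replicate 1 (0.0311) or SRSF7-OE replicate 2 (0.0499).

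CD24 (ENSG00000272398.6, chromosome 6, 106969831 to 106975627, minus strand) fell in the first table and rose in part of the second. Its levels were 145, 173 and 151 CPM in 3xCTL, 102, 97.1 and 104 CPM in the libraries labelled 3xSR and 104, 106 and 102 CPM in MYC-OE. Every control library lay above every other library of that table. CD24 fell by 0.63 (SE 0.06, adjusted p = 2.09e-05) in 3xSR and by 0.59 (SE 0.06, adjusted p = 2.50e-05) in MYC-OE. 1xCtrl had 90.2, 74.05 and 90.2 CPM, below every library of the first table. The libraries labelled SRSF2-OE, at 108, 106 and 106 CPM, and SRSF7-OE, at 108, 114 and 120 CPM, lay above it, while SRSF3-OE overlapped with it at 83.9, 80.4 and 89.3 CPM. CD24 rose by 0.33 (SE 0.08, adjusted p = 0.00790) and by 0.43 (SE 0.08, adjusted p = 0.00253), and in SRSF3-OE its log2 fold change was -0.00 (SE 0.08, adjusted p = 0.974). Annotated CD24 pseudogenes held at most 0.211% of the summed counts in any library.

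The number of CD44 counts per CD24 count within a library needs no scaling between libraries. It was 35.6, 33.3 and 35.6 in 3xCTL, 81.7, 84.7 and 79.6 in the libraries labelled 3xSR and 84.5, 82.7 and 87.6 in MYC-OE. Both lines were above every control, with means of 82.01 ± 2.59 and 84.9 ± 2.46 beside 34.8 ± 1.33 (SD, n = 3). Among the single lines and their control, 1xCtrl stood at 92.5, 96.95 and 91.2 and the libraries labelled SRSF2-OE at 87.5, 96.2 and 95.96, so that these groups overlapped; both genes rose there. SRSF3-OE, at 157, 148 and 133, lay above the control, and SRSF7-OE, at 65.1, 61.1 and 51.5, below it. The mean log2 ratio differed from that of the table's control by 1.29 in MYC-OE, 1.24 in 3xSR, -0.67 in SRSF7-OE, 0.64 in SRSF3-OE and -0.01 in SRSF2-OE. The ratio is a description with no test.

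**Figure D3:**
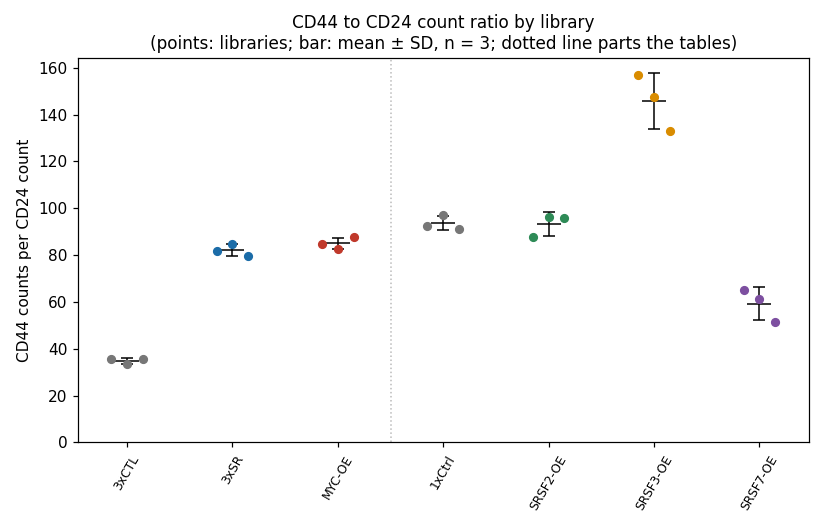
CD44 counts per CD24 count in each library, with mean ± SD of 3. The ratio was lowest in 3xCTL (33.3 to 35.6) and highest in SRSF3-OE (133 to 157), and in SRSF7-OE (51.5 to 65.1) it lay under that of its control 1xCtrl (91.2 to 96.95).

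PROM1 (ENSG00000007062.11, chromosome 4, 15963076 to 16084378, minus strand) encodes a multi-pass glycoprotein of membrane protrusions and was close to absent. Its counts in 3xCTL were 10, 0 and 17, and the 0 among 185378510 counts allows up to 0.0162 CPM (3 counts, counting error only). Counts of 32, 79 and 49 in the libraries labelled 3xSR (0.176, 0.401 and 0.342 CPM) and of 227, 168 and 203 in MYC-OE (0.921, 0.835 and 0.893 CPM) lay above all controls. PROM1 rose by 2.75 (SE 0.69, adjusted p = 0.0157) and by 4.28 (SE 0.69, adjusted p = 0.00115), folds that rest on those few control reads. Without 3xCTL replicate 2 these log2 fold changes were 2.20 and 3.73, and without 3xCTL replicate 3 they were 3.71 and 5.25. In the second table it had 0.435, 0.230 and 0.326 CPM in 1xCtrl and was highest in SRSF3-OE, at 1.29, 1.11 and 1.38 CPM. SRSF7-OE, at 0.629, 1.03 and 0.817 CPM, and the libraries labelled SRSF2-OE, at 0.679, 0.513 and 0.550 CPM, overlapped with each other and not with the control. The rise was 1.94 (SE 0.25, adjusted p = 8.56e-05) in SRSF3-OE, 1.33 (SE 0.25, adjusted p = 0.00307) in SRSF7-OE and 0.82 (SE 0.25, adjusted p = 0.0290) in SRSF2-OE. PROM1 shares 166 of its 7434 exon bases with FGFBP2 on the same strand, and with the counts of both genes summed the SRSF2-OE change was 0.58 (adjusted p = 0.0980), while that in 3xSR was 1.50 and that in MYC-OE 2.85. The call in 3xSR was lost without 3xCTL replicate 1 (adjusted p = 0.0638), 3xSR replicate 2 (0.0560) or 3xSR replicate 3 (0.0508), and that in SRSF2-OE without 1xCtrl replicate 2 (0.0746) or 3 (0.0700), SRSF2-OE replicate 1 (0.116) or 3 (0.0582), or with only the groups compared in the fit (0.0854).

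PROCR (ENSG00000101000.6, chromosome 20, 35172073 to 35216240, plus strand), which presents protein C to thrombin bound to thrombomodulin, had 12.5, 14.1 and 14.5 CPM in 3xCTL. It stood at 23.9, 25.4 and 24.6 CPM in the libraries labelled 3xSR and at 33.7, 33.9 and 33.01 CPM in MYC-OE, and the 3 groups did not overlap. PROCR rose by 0.85 (SE 0.06, adjusted p = 1.63e-06) and by 1.29 (SE 0.06, adjusted p = 3.19e-08). The second table had a higher control, at 24.1, 28.5 and 25.7 CPM. SRSF3-OE had 36.1, 34.3 and 35.99 CPM, the libraries labelled SRSF2-OE 30.4, 31.5 and 33.4 CPM and SRSF7-OE 28.8, 28.8 and 28.4 CPM, of which the last overlapped with the control. PROCR rose by 0.44 (SE 0.07, adjusted p = 3.27e-04) in SRSF3-OE and by 0.28 (SE 0.07, adjusted p = 0.00876) in SRSF2-OE, and in SRSF7-OE its log2 fold change was 0.13 (SE 0.07, adjusted p = 0.203). The SRSF2-OE call was lost without 1xCtrl replicate 1 (adjusted p = 0.175) or 3 (0.0784), without SRSF2-OE replicate 1 (0.0658), 2 (0.0943) or 3 (0.155), with no filter (0.0535) and with only the groups compared in the fit (0.150). Without 1xCtrl replicate 2, PROCR passed in SRSF7-OE at 0.22 (adjusted p = 0.0130).

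THY1 (ENSG00000154096.13, chromosome 11, 119417378 to 119424985, minus strand), a glycolipid-anchored surface protein that also marks fibroblasts, was highest in MYC-OE and SRSF7-OE. The controls had 6.12, 6.22 and 6.63 CPM (3xCTL) and 6.97, 9.24 and 6.82 CPM (1xCtrl). MYC-OE had 20.7, 20.01 and 19.3 CPM and SRSF7-OE 16.2, 15.6 and 17.4 CPM. Each of these libraries lay above each control, with rises of 1.66 (SE 0.08, adjusted p = 3.19e-08) and 1.10 (SE 0.11, adjusted p = 5.44e-05). THY1 had 7.09, 8.34 and 8.36 CPM in the libraries labelled 3xSR, where it rose by 0.33 (SE 0.08, adjusted p = 0.00959). It had 11.2, 10.5 and 10.8 CPM in those labelled SRSF2-OE, a rise of 0.50 (SE 0.11, adjusted p = 0.00467), and 11.4, 12.6 and 12.2 CPM in SRSF3-OE, a rise of 0.65 (SE 0.11, adjusted p = 5.42e-04). All 3 groups lay above their controls. Of the 7 fibroblast markers, COL1A2, COL3A1, DCN, PDGFRA and PDGFRB were under 1 CPM in each of the 21 libraries. COL1A1 had 5.46 to 15.7 CPM and LUM 5.51 to 39.7 CPM. The summed level of the 7 was 47.5 to 49.7 CPM in 3xCTL and 19.3 to 19.4 CPM in MYC-OE. It was 28.6 to 33.1 CPM in 1xCtrl and 20.97 to 24.1 CPM in SRSF7-OE. The remaining lines had 23.0 to 26.0 CPM (3xSR), 15.4 to 16.6 CPM (SRSF3-OE) and 16.3 to 16.6 CPM (SRSF2-OE). All 5 lines were thus lower in this sum than their controls, and SRSF3-OE and SRSF2-OE were lower than SRSF7-OE. The summed level of 5 leukocyte markers was higher in every library of the 5 lines than in the controls of its table. It was 8.20 to 13.1 CPM in 3xCTL, 17.9 to 21.7 CPM in 3xSR and 33.5 to 37.9 CPM in MYC-OE. Its range was 10.4 to 17.2 CPM in 1xCtrl, 21.5 to 26.4 in SRSF7-OE, 30.05 to 33.3 in SRSF3-OE and 21.9 to 24.2 in SRSF2-OE. CD68, a lysosomal protein, had 5.92 to 36.1 CPM and CSF1R 0.891 to 2.06 CPM, while PTPRC (CD45), which defines leukocytes, was at most 0.539 CPM and CD3E at most 0.0254 CPM in any library. The SRSF2-OE call was lost without 1xCtrl replicate 1 (adjusted p = 0.0879), SRSF2-OE replicate 1 (0.0696) or SRSF2-OE replicate 3 (0.0536), and with only the groups compared in the fit (0.0917).

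ALDH1A1 (ENSG00000165092.13, chromosome 9, 72900662 to 73080442, minus strand) was the gene that fell in all 5 lines. Its level was 35.6, 36.1 and 36.2 CPM in 3xCTL, 21.4, 19.8 and 21.6 CPM in the libraries labelled 3xSR and 23.02, 22.01 and 20.8 CPM in MYC-OE. Both lines lay below all controls and overlapped with each other. ALDH1A1 fell by 0.78 (SE 0.06, adjusted p = 1.57e-06) and by 0.71 (SE 0.06, adjusted p = 1.99e-06). The lowest values of the series were those of SRSF3-OE, 5.66, 4.86 and 5.86 CPM, beside 22.7, 19.2 and 24.1 CPM in 1xCtrl. ALDH1A1 fell by 2.01 (SE 0.12, adjusted p = 1.38e-07) on the log2 scale there. The libraries labelled SRSF2-OE had 18.8, 16.7 and 15.7 CPM and SRSF7-OE 18.00, 16.6 and 14.4 CPM, all below the control, and ALDH1A1 fell by 0.36 (SE 0.11, adjusted p = 0.0333) and by 0.43 (SE 0.11, adjusted p = 0.0193). The SRSF2-OE call was lost without 1xCtrl replicate 3 (adjusted p = 0.0676) or SRSF2-OE replicate 2 (0.0580) or 3 (0.0695), and the SRSF7-OE call without SRSF7-OE replicate 3 (0.0709) or with only the groups compared in the fit (0.0560).

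ALDH1A3 (ENSG00000184254.17, chromosome 15, 100877714 to 100916626, plus strand), which supplies much of the ALDH activity of many breast cancer lines, fell with ALDH1A1 in 3xSR and SRSF3-OE only. It had 290, 287 and 274 CPM in 3xCTL, 230, 212 and 214 CPM in the libraries labelled 3xSR and 310, 303 and 286 CPM in MYC-OE. The former lay below the control and fell by 0.38 (SE 0.05, adjusted p = 2.12e-04), and MYC-OE overlapped with it, at a log2 fold change of 0.08 (SE 0.05, adjusted p = 0.282). In 1xCtrl it had 183, 172 and 192 CPM, and the 4 groups sharing that table did not overlap. SRSF3-OE, at 139, 125 and 141 CPM, fell by 0.43 (SE 0.06, adjusted p = 2.22e-04), and SRSF7-OE, at 243, 244 and 243 CPM, rose by 0.42 (SE 0.06, adjusted p = 0.00108). In the libraries labelled SRSF2-OE, at 221, 214 and 202 CPM, it rose by 0.22 (SE 0.06, adjusted p = 0.0218). That last call was lost without 1xCtrl replicate 1 (adjusted p = 0.114) or 2 (0.0508), without SRSF2-OE replicate 1 (0.131) or 2 (0.0933), with total counts as the only scaling (0.0606) and with only the groups compared in the fit (0.0642). Per kilobase of merged exons, ALDH1A3 exceeded ALDH1A1 by 3.90 ± 0.148 times in 3xCTL, 6.74 ± 0.0908 times in MYC-OE and 5.15 ± 0.225 times in 3xSR (mean ± SD, n = 3). The second table gave 4.11 ± 0.268 times for 1xCtrl, 7.42 ± 0.864 for SRSF7-OE, 12.2 ± 0.440 for SRSF3-OE and 6.15 ± 0.305 for SRSF2-OE. The ratio was highest in SRSF3-OE, where its denominator, ALDH1A1, was lowest. An antisense gene, AC015712.2, shares 1585 of the 5772 exon bases of ALDH1A3, and the genes sharing its exons held at most 2.29% of the summed counts.

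SOX9 (ENSG00000125398.8, chromosome 17, 72121020 to 72126420, plus strand) was expressed at a low level in each line. 3xCTL had 4.29, 4.15 and 3.81 CPM, the libraries labelled 3xSR 7.76, 6.94 and 7.27 CPM and MYC-OE 5.48, 5.14 and 5.95 CPM. These 3 groups did not overlap, and SOX9 rose by 0.84 (SE 0.09, adjusted p = 3.85e-05) in 3xSR and by 0.44 (SE 0.09, adjusted p = 0.00309) in MYC-OE. SRSF3-OE had 12.8, 12.8 and 12.9 CPM beside 7.42, 7.32 and 7.35 CPM in 1xCtrl, a rise of 0.80 (SE 0.09, adjusted p = 3.30e-05). The libraries labelled SRSF2-OE, at 8.97, 9.50 and 9.93 CPM, rose by 0.36 (SE 0.09, adjusted p = 0.0111). SRSF7-OE had 6.89, 7.87 and 8.87 CPM, on both sides of the control, and a log2 fold change of 0.10 (SE 0.09, adjusted p = 0.523). The SRSF2-OE call was lost without 1xCtrl replicate 1 (adjusted p = 0.0691) or SRSF2-OE replicate 2 (0.0587) or 3 (0.0810).

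Per kilobase of merged exons the group means of CD44 ran from 543 to 1230 CPM, above those of CD24 (27.3 to 50.5), ALDH1A3 (23.4 to 51.9), PROCR (8.07 to 20.9), ALDH1A1 (1.92 to 12.6), THY1 (1.07 to 3.38), SOX9 (1.04 to 3.26) and PROM1 (0.00609 to 0.169). The controls of the tables were unlike in most of these genes. CD44 averaged 5429 ± 309 CPM in 3xCTL and 7915 ± 641 CPM in 1xCtrl, PROCR 13.7 ± 1.03 and 26.1 ± 2.25, and SOX9 4.08 ± 0.250 and 7.36 ± 0.0551 (SD, n = 3 each). CD24 averaged 156 ± 14.9 and 84.8 ± 9.33 CPM, ALDH1A1 35.97 ± 0.292 and 21.99 ± 2.54, and ALDH1A3 284 ± 8.89 and 182 ± 10.3. THY1 was closer, at 6.32 ± 0.269 and 7.67 ± 1.35 CPM. In CD44, PROM1, PROCR, SOX9, THY1 and ALDH1A1 the libraries labelled 3xSR overlapped in level with 1xCtrl. The tables were scaled separately and the control differs with the table, so table and control cannot be told apart and no test was made.

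Between MYC-OE and the libraries labelled 3xSR, 3 of the 8 genes were higher in MYC-OE and 1 was lower, beside 17.3% and 17.6% of all genes (34.9% changed). THY1 differed by 1.34 (SE 0.08, adjusted p = 7.16e-07), ALDH1A3 by 0.46 (SE 0.05, adjusted p = 6.05e-05), PROCR by 0.45 (SE 0.06, adjusted p = 2.32e-04) and SOX9 by -0.41 (SE 0.09, adjusted p = 0.00506) on the log2 scale. CD44 (0.10, adjusted p = 0.177), CD24 (0.04, adjusted p = 0.639) and ALDH1A1 (0.07, adjusted p = 0.407) did not pass, nor did PROM1 at 1.53 (SE 0.58, adjusted p = 0.0698). DESeq2 called PROM1 (adjusted p = 0.00431), as did limma-voom (0.00642) and edgeR with only the groups compared (6.77e-04) or with FGFBP2 summed (0.00999). With each library's trend in GC content removed, CD44 passed at 0.16 (adjusted p = 0.00678) and ALDH1A1 at 0.19 (0.0110), and CD44 also with only the groups compared (0.0455).

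The single lines were also set against one another. SRSF7-OE and SRSF3-OE differed in 7 of the 8 genes, 4 higher and 3 lower in SRSF7-OE, beside 17.3% and 17.8% of all genes (35.2% changed). CD44 at -0.87 (SE 0.08, adjusted p = 4.64e-06), SOX9 at -0.71 (SE 0.09, adjusted p = 5.69e-05) and PROCR at -0.31 (SE 0.07, adjusted p = 0.00323) were lower in SRSF7-OE. ALDH1A1 at 1.58 (SE 0.12, adjusted p = 5.41e-07), ALDH1A3 at 0.85 (SE 0.06, adjusted p = 5.96e-07), CD24 at 0.44 (SE 0.08, adjusted p = 6.87e-04) and THY1 at 0.44 (SE 0.11, adjusted p = 0.00565) were higher. The lines thus differed in CD44 and CD24 and in both ALDH1A genes, and the PROCR call was lost without SRSF3-OE replicate 3 (adjusted p = 0.0520). PROM1 at -0.61 (SE 0.24, adjusted p = 0.0617) missed the threshold and passed with DESeq2 (0.0436), limma-voom (0.0223), with only the groups compared (0.0354) and without SRSF7-OE replicate 2 (0.0397).

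Against the libraries labelled SRSF2-OE, SRSF3-OE had 3 of the 8 genes higher and 3 lower, beside 14.1% and 12.6% of all genes (26.8% changed). ALDH1A1 differed by -1.65 (SE 0.12, adjusted p = 9.10e-07), ALDH1A3 by -0.65 (SE 0.06, adjusted p = 1.09e-05) and CD24 by -0.33 (SE 0.08, adjusted p = 0.00642). PROM1 differed by 1.12 (SE 0.24, adjusted p = 0.00395), SOX9 by 0.44 (SE 0.09, adjusted p = 0.00304) and CD44 by 0.31 (SE 0.08, adjusted p = 0.0125). PROCR (0.16, adjusted p = 0.105) and THY1 (0.15, adjusted p = 0.328) did not pass, and did with the GC trend removed (adjusted p = 0.00694 and 0.00262). SRSF7-OE had 2 higher and 2 lower than the libraries labelled SRSF2-OE, beside 12.8% and 11.5% (24.2% changed). THY1 differed by 0.60 (SE 0.11, adjusted p = 0.00136), CD44 by -0.56 (SE 0.08, adjusted p = 3.61e-04), ALDH1A3 by 0.20 (SE 0.06, adjusted p = 0.0377) and SOX9 by -0.27 (SE 0.09, adjusted p = 0.0491). CD24 (0.10, adjusted p = 0.375), PROM1 (0.51, adjusted p = 0.148), ALDH1A1 (-0.07, adjusted p = 0.720) and PROCR (-0.15, adjusted p = 0.137) did not pass. The ALDH1A3 call was lost without SRSF2-OE replicate 3 (adjusted p = 0.0708) or SRSF7-OE replicate 3 (0.0709) and with the replicate block (0.0560). That of SOX9 was lost without SRSF2-OE replicate 1, 2 or 3 or SRSF7-OE replicate 1 or 2 (adjusted p from 0.0770 to 0.241), with total counts (0.121), no filter (0.137), a stricter filter (0.0522), the replicate block (0.0595), the GC trend removed (0.107) or only the groups compared (0.0839).

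Whether these genes changed in 3xSR by another amount than in a line labelled for 1 SR gene was tested in 1 fit over all 7 groups, as the change from 3xCTL to 3xSR minus the change from 1xCtrl to the single line. Each effect has its own control, so these differences also carry the difference between the controls. Against SRSF3-OE 3 of the 8 genes differed, 2 upward and 1 downward, beside 10.8% and 7.02% of the 25013 genes tested (17.8% either way). ALDH1A1, which fell in both, differed by 1.24 (SE 0.13, adjusted p = 2.09e-06), PROCR by 0.42 (SE 0.09, adjusted p = 0.00296) and CD24 by -0.61 (SE 0.10, adjusted p = 2.33e-04). For CD44 the difference was -0.02 (SE 0.09, adjusted p = 0.936) and for SOX9 0.05 (SE 0.12, adjusted p = 0.828), neither past the threshold. ALDH1A3 (0.07, adjusted p = 0.645), PROM1 (0.83, adjusted p = 0.466) and THY1 (-0.31, adjusted p = 0.141) did not pass either, though THY1 did without 1xCtrl replicate 2 (-0.48, adjusted p = 0.00222) and with the GC trend removed (0.0100). Against SRSF7-OE 3 differed upward and 3 downward (all genes: 13.6% and 10.9%, 24.6% either way). CD44 differed by 0.84 (SE 0.09, adjusted p = 2.37e-06), SOX9 by 0.75 (SE 0.12, adjusted p = 1.36e-04) and PROCR by 0.72 (SE 0.09, adjusted p = 1.04e-05). CD24 differed by -1.06 (SE 0.10, adjusted p = 2.63e-07), ALDH1A3 by -0.79 (SE 0.08, adjusted p = 5.66e-07) and THY1 by -0.76 (SE 0.14, adjusted p = 4.43e-04). ALDH1A1 at -0.35 (SE 0.13, adjusted p = 0.0609) missed the threshold and passed without 1xCtrl replicate 3 (adjusted p = 0.0248) or SRSF7-OE replicate 3 (0.0206). It also passed with total counts (0.0407), a stricter filter (0.0429), limma-voom (0.0475) and the replicate block (0.0461), and at -0.50 with the GC trend removed (0.00112). PROM1 at 1.43 (SE 0.68, adjusted p = 0.145) passed without 3xCTL replicate 3 (0.0204) and with DESeq2 (0.0335).

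The change in 3xSR against that in the libraries labelled SRSF2-OE gave 3 upward and 3 downward (all genes: 13.3% and 8.53%, 21.9% either way). CD24 differed by -0.95 (SE 0.10, adjusted p = 1.17e-06), ALDH1A3 by -0.59 (SE 0.08, adjusted p = 1.97e-05), PROCR by 0.57 (SE 0.09, adjusted p = 1.20e-04) and SOX9 by 0.49 (SE 0.12, adjusted p = 0.00601). ALDH1A1 at -0.41 (SE 0.13, adjusted p = 0.0294) and CD44 at 0.29 (SE 0.09, adjusted p = 0.0334) were close to the threshold. ALDH1A1 missed it without 1xCtrl replicate 2, 3xCTL replicate 1, 3xSR replicate 2, SRSF2-OE replicate 1 or SRSF2-OE replicate 2 (adjusted p from 0.0506 to 0.0800). CD44 missed it without 3xCTL replicate 1 or 3, 3xSR replicate 1, 2 or 3, 1xCtrl replicate 1 or 3 or SRSF2-OE replicate 1 or 3 (adjusted p from 0.0582 to 0.121), with no filter (0.0501) or with only the groups compared (0.0537). PROM1 at 1.94 (SE 0.69, adjusted p = 0.0517) and THY1 at -0.16 (SE 0.14, adjusted p = 0.477) did not pass. PROM1 passed without 3xCTL replicate 2 (1.39, adjusted p = 0.0463), 3xCTL replicate 3 (2.88, 0.00634), 3xSR replicate 1 (0.0329) or 1xCtrl replicate 2 (0.0292) and with DESeq2 (0.00249), total counts (0.0485) and, at the threshold, limma-voom, and THY1 without 1xCtrl replicate 2 (0.0227).

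**Figure D4:**
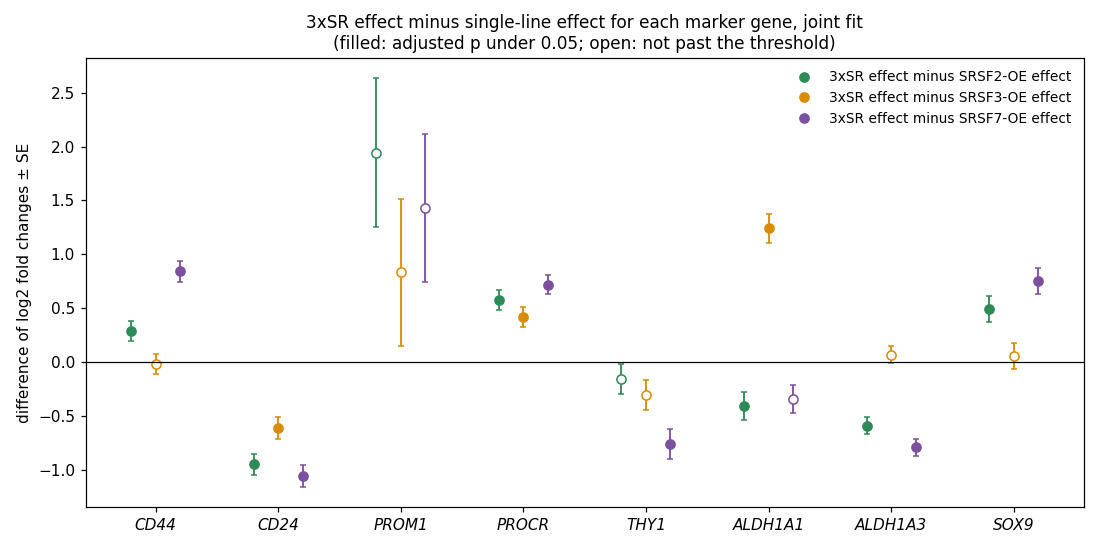
Log2 fold change in 3xSR (against 3xCTL) minus that in each single line (against 1xCtrl), ± SE, from the joint fit; filled points passed an adjusted p of 0.05 and open points did not. CD24 lay below 0 and PROCR above 0 against all 3 single lines, and ALDH1A1 lay at 1.24 against SRSF3-OE.

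CD44 acts through hyaluronan, and its ligands, partners and sheddases were read from a list of 21, of which 19 were tested. In the libraries labelled 3xSR 6 rose and 4 fell, in MYC-OE 9 and 5, in SRSF7-OE 3 and 4, in SRSF3-OE 5 and 2, and in the libraries labelled SRSF2-OE 7 and 5. The median log2 fold changes were -0.12, 0.19, 0.01, 0.11 and 0.16 in that order, beside -0.0038, -0.0046, -0.0048, -0.025 and -0.011 over all genes. Changed genes were 52.6% of those tested in 3xSR, 73.7% in MYC-OE, 36.8% in SRSF7-OE, 36.8% in SRSF3-OE and 63.2% in SRSF2-OE, beside 29%, 35.3%, 17.3%, 29.2% and 23.5% of all genes. With the GC trend removed 12 changed in SRSF3-OE and 11 in SRSF7-OE, and 12 in SRSF7-OE without 1xCtrl replicate 2. HAS3, a hyaluronan synthase, went from 60.7 ± 3.22 CPM in 3xCTL to 142 ± 2.47 CPM in 3xSR, a rise of 1.23 (SE 0.05, adjusted p = 1.96e-08), and rose by 0.47 (SE 0.05, adjusted p = 2.46e-05) in MYC-OE and 0.65 (SE 0.06, adjusted p = 8.49e-06) in SRSF3-OE. In SRSF7-OE HAS3 fell by 0.48 (SE 0.06, adjusted p = 3.66e-04) and HAS2, a further synthase, by 0.83 (SE 0.08, adjusted p = 4.18e-05), the latter from 97.6 ± 10.3 to 55.1 ± 3.48 CPM. HAS2 rose by 0.76 (SE 0.06, adjusted p = 2.37e-06) in 3xSR and by 0.44 (SE 0.08, adjusted p = 0.00131) in SRSF2-OE and fell by 0.23 (SE 0.06, adjusted p = 0.00972) in MYC-OE. VCAN, a proteoglycan that binds hyaluronan, rose by 2.58 in 3xSR, 2.18 in MYC-OE, 0.85 in SRSF7-OE, 1.53 in SRSF3-OE and 0.75 in SRSF2-OE (adjusted p from 2.04e-06 to 7.83e-04). SRGN, a proteoglycan ligand of CD44, rose by 4.50 (SE 0.25, adjusted p = 7.91e-08) in MYC-OE, from 0.0986 ± 0.0210 to 2.25 ± 0.279 CPM. In SRSF7-OE it rose by 2.53 (SE 0.15, adjusted p = 1.19e-06), from 0.398 ± 0.0395 to 2.29 ± 0.111 CPM. Both folds rest on low control levels. SPP1, which encodes the ligand osteopontin, fell by 0.68 in MYC-OE, 0.51 in SRSF7-OE and 0.19 in 3xSR (adjusted p from 3.61e-07 to 0.00705).

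Proteins known to act on CD44 splicing made a list of 13, all tested. In the libraries labelled SRSF2-OE 6 rose and 0 fell, in SRSF3-OE 7 and 0, in SRSF7-OE 2 and 3, in 3xSR 1 and 1, and in MYC-OE 1 and 5. The list had 15.4% of its genes called in 3xSR, 46.2% in MYC-OE, 38.5% in SRSF7-OE, 53.8% in SRSF3-OE and 46.2% in SRSF2-OE, and all genes 29%, 35.3%, 17.3%, 29.2% and 23.5%. These small counts moved with the setting. In 3xSR, 4 were called with DESeq2 and 4 with the GC trend removed. In SRSF2-OE, 3 were called with total counts, with only the groups compared, without 1xCtrl replicate 1 or without SRSF2-OE replicate 2. In SRSF3-OE, 4 were called with total counts or without SRSF3-OE replicate 1 or 3, and 3 with only the groups compared or without 1xCtrl replicate 1. In SRSF7-OE, 3 were called with only the groups compared. YBX1 and HNRNPM, both RNA-binding proteins, rose by 0.44 and 0.34 in SRSF2-OE (adjusted p = 2.88e-04 and 8.12e-04) and by 0.37 and 0.38 in SRSF3-OE (adjusted p = 5.74e-04 and 2.34e-04). HNRNPL and SRSF10 fell by 0.51 and 0.54 in MYC-OE (adjusted p = 3.14e-06 and 3.26e-05). ESRP1, the epithelial factor that promotes inclusion of CD44 variable exons, averaged between 132 and 148 CPM over the 7 groups and was called in none of the 5 lines (adjusted p from 0.0509 to 0.887). Its paralogue ESRP2 fell by 0.26 (SE 0.06, adjusted p = 0.00563) in 3xSR and by 0.25 (SE 0.06, adjusted p = 0.00482) in MYC-OE and rose by 0.24 (SE 0.08, adjusted p = 0.0418) in SRSF2-OE.

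The other aldehyde dehydrogenases were 17 genes, all tested. In 3xSR 1 rose and 9 fell (median log2 fold change -0.26), in SRSF3-OE 2 and 7 (-0.35), in SRSF2-OE 2 and 4 (-0.03), in MYC-OE 4 and 4 (0.05), and in SRSF7-OE 7 and 0 (0.27). The medians over all genes were -0.0038, -0.0046, -0.0048, -0.025 and -0.011 in 3xSR, MYC-OE, SRSF7-OE, SRSF3-OE and SRSF2-OE. In the same order 58.8%, 47.1%, 41.2%, 52.9% and 35.3% of the enzymes changed, beside 29%, 35.3%, 17.3%, 29.2% and 23.5% of all genes. In SRSF7-OE 4 changed without SRSF7-OE replicate 3. ALDH3B1 fell from 11.3 ± 0.962 to 4.27 ± 0.141 CPM in 3xSR, by 1.41 (SE 0.08, adjusted p = 2.65e-07). ALDH3A1, a detoxifying enzyme of epithelia, fell by 1.24 (SE 0.15, adjusted p = 2.99e-04) in 3xSR and rose by 0.79 (SE 0.22, adjusted p = 0.0322) in SRSF7-OE. In SRSF3-OE, ALDH5A1 fell by 1.30 (SE 0.08, adjusted p = 1.83e-07) and ALDH6A1 by 1.51 (SE 0.12, adjusted p = 2.04e-06), both mitochondrial enzymes. ALDH2, the mitochondrial enzyme that clears acetaldehyde, rose by 0.19 in 3xSR, 0.64 in MYC-OE, 0.30 in SRSF2-OE and 0.23 in SRSF3-OE (adjusted p from 1.91e-06 to 0.0150), and by 0.36 in SRSF7-OE (adjusted p = 0.00128).

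Genes of retinoic acid synthesis, transport and response numbered 23, of which 20 were tested in the first table and 21 in the second. SRSF3-OE had 3 higher and 11 lower and a median log2 fold change of -0.40, MYC-OE 9 and 3 (0.28), 3xSR 8 and 5 (0.07), SRSF2-OE 6 and 3 (0.20) and SRSF7-OE 5 and 1 (0.25), with the medians over all genes as just given. The pathway had 65% of its tested genes changed in 3xSR, 60% in MYC-OE, 28.6% in SRSF7-OE, 66.7% in SRSF3-OE and 42.9% in SRSF2-OE, beside 29%, 35.3%, 17.3%, 29.2% and 23.5% of all genes. Without SRSF2-OE replicate 3, 5 were called in SRSF2-OE. In SRSF7-OE 10 were called with the GC trend removed and 12 without 1xCtrl replicate 2. RARB, a retinoic acid receptor and itself a retinoic acid target, fell by 1.40 (SE 0.15, adjusted p = 2.45e-05) in SRSF3-OE and by 1.20 (SE 0.15, adjusted p = 1.33e-04) in SRSF2-OE. TGM2, a further target, fell by 2.01 (SE 0.12, adjusted p = 2.46e-07) in 3xSR, 0.73 (SE 0.11, adjusted p = 3.60e-04) in MYC-OE and 0.86 (SE 0.14, adjusted p = 4.33e-04) in SRSF3-OE. DHRS9, a retinol dehydrogenase, rose by 0.91 (SE 0.07, adjusted p = 1.57e-06) in 3xSR and by 1.16 (SE 0.07, adjusted p = 7.34e-07) in SRSF2-OE. PLAAT4, induced by retinoids, fell by 0.89 (SE 0.11, adjusted p = 7.51e-05) in 3xSR and rose by 1.28 (SE 0.12, adjusted p = 4.14e-05) in SRSF7-OE.

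Of 11 genes of the protein C pathway, in which PROCR acts, 10 were tested. In 3xSR 4 rose and 1 fell, in MYC-OE 3 and 1, in SRSF7-OE 0 and 3, in SRSF3-OE 4 and 2, and in SRSF2-OE 2 and 3. This was 50% of those tested in 3xSR, 40% in MYC-OE, 30% in SRSF7-OE, 60% in SRSF3-OE and 50% in SRSF2-OE, beside 29%, 35.3%, 17.3%, 29.2% and 23.5% of all genes. In SRSF7-OE edgeR called 0 with only the groups compared (4 at an unadjusted p under 0.05), and 5 with the GC trend removed or without 1xCtrl replicate 2. THBD, the thrombomodulin with which PROCR works, rose by 0.95 (SE 0.05, adjusted p = 7.71e-08) in 3xSR and by 0.46 (SE 0.07, adjusted p = 2.75e-04) in SRSF3-OE. F2R, a thrombin receptor, fell by 1.17 in SRSF2-OE, 0.90 in SRSF3-OE, 0.27 in SRSF7-OE and 0.21 in 3xSR (adjusted p from 1.57e-06 to 0.0354).

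Partners and targets of SOX9 numbered 20, of which 16 were tested in the first table and 18 in the second. In 3xSR 6 rose and 4 fell, in MYC-OE 1 and 3, in SRSF7-OE 3 and 2, in SRSF3-OE 3 and 3, and in SRSF2-OE 3 and 4. Those called made up 62.5% of those tested in 3xSR, 25% in MYC-OE, 27.8% in SRSF7-OE, 33.3% in SRSF3-OE and 38.9% in SRSF2-OE, where the shares of all genes were 29%, 35.3%, 17.3%, 29.2% and 23.5%. With the GC trend removed, 7 were called in MYC-OE and 8 in SRSF7-OE. SRSF7-OE had 10 without 1xCtrl replicate 2, and SRSF3-OE 3 with only the groups compared or without SRSF3-OE replicate 1. SNAI2, a transcription factor that acts with SOX9 in mammary stem cells, rose by 0.35 (SE 0.07, adjusted p = 0.00278) in 3xSR, 0.41 (SE 0.10, adjusted p = 0.00885) in SRSF2-OE and 0.75 (SE 0.10, adjusted p = 1.04e-04) in SRSF3-OE. FGFR2, a growth factor receptor, fell by 0.63 in 3xSR, 0.64 in MYC-OE, 0.60 in SRSF2-OE and 0.21 in SRSF7-OE (adjusted p from 2.60e-06 to 0.0247). FGFR3 fell by 0.64 (SE 0.12, adjusted p = 0.00387) in 3xSR and by 1.38 (SE 0.18, adjusted p = 3.16e-04) in SRSF3-OE.

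Other markers of breast stem and progenitor cells were 30 genes, of which 26 were tested. In MYC-OE 15 rose and 5 fell, in 3xSR 10 and 5, in SRSF3-OE 10 and 7, in SRSF2-OE 8 and 6, and in SRSF7-OE 5 and 3. Of these markers 57.7% changed in 3xSR, 76.9% in MYC-OE, 30.8% in SRSF7-OE, 65.4% in SRSF3-OE and 53.8% in SRSF2-OE, beside 29%, 35.3%, 17.3%, 29.2% and 23.5% of all genes. In SRSF7-OE 13 were called without 1xCtrl replicate 2, and 5 with only the groups compared or without SRSF7-OE replicate 3. ITGA6, the laminin receptor chain by which basal mammary cells are sorted, went from 918 ± 47.7 CPM in 3xCTL to 2043 ± 104 CPM in 3xSR, a rise of 1.15 (SE 0.06, adjusted p = 4.56e-08), and to 2139 ± 23.2 CPM in MYC-OE, a rise of 1.22 (SE 0.06, adjusted p = 1.68e-08). NT5E (CD73) rose by 1.55 (SE 0.05, adjusted p = 4.38e-09) in 3xSR, 0.48 (SE 0.07, adjusted p = 3.63e-04) in SRSF2-OE and 1.06 (SE 0.07, adjusted p = 4.66e-07) in SRSF3-OE. NGFR, a marker of basal cells, rose by 1.88 (SE 0.16, adjusted p = 8.54e-06) in MYC-OE and 1.26 (SE 0.14, adjusted p = 1.01e-04) in SRSF7-OE and fell by 0.85 (SE 0.14, adjusted p = 6.47e-04) in SRSF2-OE. KIT, a marker of luminal progenitors, fell by 1.27 in 3xSR, 1.46 in MYC-OE and 0.64 in SRSF7-OE and rose by 0.52 in SRSF2-OE (adjusted p from 2.43e-07 to 0.00548). MUC1, a mucin of luminal cells, fell by 1.30 in MYC-OE, 1.16 in SRSF2-OE and 1.64 in SRSF3-OE (adjusted p from 5.60e-07 to 1.50e-05).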

How the data were processed

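The deposited tables hold whole-number read counts per gene, which the authors made from stranded, poly(A)-selected mRNA libraries of HCC1806, per the labels' protocols. The submitters' processing notes name Trimmomatic 0.39, STAR, StringTie 2.1.3b and GRCh38.p13, with no role or order; the counting tool, its strand setting and the annotation release are not given in the sources used here. Without a stated strand setting, it is not known whether reads of a gene and its antisense partner were counted apart.

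Genes that passed edgeR's filterByExpr were scaled by TMM and tested in edgeR 4.0.16 (R 4.3.3) with robust quasi-likelihood fits, 1 per table over all its groups. The filter asked for the CPM of 10 counts at the median depth, in as many libraries as a group holds, and 15 counts in total. Adjusted p-values are Benjamini-Hochberg values over all genes tested, with a threshold of 0.05. The comparison of 3xSR with the lines labelled for 1 SR gene used 1 fit of all 7 groups. The procedure was tested on simulated data. DESeq2 1.42.0, limma 3.58.1 (voom), RLE scaling, total counts, other filters, a GC correction, only the groups compared, a replicate block, summing counts with genes sharing exons and leaving out each library were alternatives; summing CD24 with its pseudogenes was chosen after seeing the data. Gene positions and exon lengths came from GENCODE 29 (GRCh38), promoters from RefSeq (GRCh38.p14).

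The 8 genes and the lists were chosen with earlier results of these data known. Beside the 8 genes, the text names the 2 genes most like each (of those with a mean of 5 CPM or more), ESRP1, ESRP2, HAS2, HAS3, the targeted genes, genes sharing exons, and from each list and line the 2 highest and 2 lowest called genes with a mean of 1 CPM or more; some of these are not reported here. Total counts per library ranged from 143269192 to 303323552, and replicates of a group differed by more than counting error (chi-square per degree of freedom 17.1 to 302), so none was counted as 1 library deposited again.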

Additional observations from a re-analysis of the deposited data

How the results depend on the processing

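Over all alternatives, 1531 values of the 8 genes kept direction and side of the threshold, 65 lost their call, 42 gained one and 12 changed sign, none of them called in either fit. These were CD24 in SRSF3-OE with limma-voom (0.0030) and, when 1 library was left out, SOX9 in SRSF7-OE (-0.020 to 0.16) and ALDH1A1 between SRSF7-OE and SRSF2-OE (-0.13 to 0.028). For the change in 3xSR less that in SRSF3-OE they were CD44 with total counts (0.060), PROM1 summed with FGFBP2 (-0.056) and, when 1 library was left out, CD44 (-0.070 to 0.038), SOX9 (-0.0071 to 0.092) and ALDH1A3 (-0.0088 to 0.098). The number of the 8 genes called in the libraries labelled SRSF2-OE went from 8 to 4 with only the groups compared, and to between 3 and 6 when 1 library was left out. The number of all genes called in SRSF7-OE went from 4214 to 7005 with the GC trend removed, 2251 with only the groups compared, and 2685 (without SRSF7-OE replicate 3) to 7321 (without 1xCtrl replicate 2) when 1 library was left out. For the change in 3xSR against that in SRSF3-OE, all genes called went from 4453 to 7070 with the GC trend removed and 2940 with only the groups compared. The cause was not tested. Leaving out 1 library gave 2 to 3 of the 8 genes called between SRSF7-OE and the libraries labelled SRSF2-OE, from 4, the lowest without SRSF2-OE replicate 3.

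Replicate numbers did not pair the libraries: same-numbered libraries had mean correlations of their deviations from the group means between -0.222 and 0.0291. In the fit of all 7 groups, the replicate block gave same-numbered libraries of both tables a shared term, though nothing links them across tables. With the replicate block, 2 of the 8 genes were called between SRSF7-OE and the libraries labelled SRSF2-OE. Depth limits PROM1, whose counts per library were 0 to 311.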

Other observations

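Over the 21 libraries, each gene's log2 CPM less the mean of its own table's control was compared with that of 11271 genes (11272 for PROM1) with a mean of 5 CPM or more. These correlations (Pearson's r) are descriptions over libraries that share lines and controls. An offset of 0.1 CPM was added before taking log2. PROM1 lay under it in 3xCTL (mean 0.0453 CPM), so all correlations of PROM1 given here depend on that constant. The 2 genes most like CD44 were SLC35G2 (r = 0.965) and TMEM200A (0.959). CD24 was most like OIP5 (0.966) and IDH3A (0.951), and PROM1 most like CPNE1 (0.946) and EDEM2 (0.943). PROCR ran with KIAA1549L (0.971) and AXL (0.966), a receptor tyrosine kinase, and THY1 with ALDH2 (0.944) and CTSZ (0.941). The nearest genes were ARID5B (0.954) and LPAR5 (0.947) for ALDH1A1, ETFA (0.979) and MFHAS1 (0.974) for ALDH1A3, and BCAR3 (0.969) and TFPI2 (0.965) for SOX9. AXL had a log2 fold change of 1.70 in 3xSR, 3.24 in MYC-OE, 0.67 in SRSF7-OE, 0.62 in SRSF3-OE and 0.66 in SRSF2-OE.

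Among the 8 genes themselves, the same measure was highest between PROM1 and PROCR (0.869), CD44 and SOX9 (0.814), PROM1 and THY1 (0.812) and CD44 and PROCR (0.803). It was lowest between ALDH1A1 and SOX9 (-0.801) and CD24 and PROCR (-0.778). ALDH1A1 and ALDH1A3 had 0.632, and CD44 and CD24 -0.673.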
